A study of Macaca mulatta and Mus musculus and Rattus norvegicus with 12 samples.

Results

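The class 3 semaphorins are secreted guidance proteins, and the genes described here are 6 of them (SEMA3A, SEMA3B, SEMA3C, SEMA3D, SEMA3E and SEMA3F) with 4 receptor genes, the plexins PLXNA1 and PLXND1 and the neuropilins NRP1 and NRP2. They were compared between the calvaria (skull vault) and the tibia in mouse, rat and rhesus macaque. These 10 genes were selected on their family, with their site differences in the same libraries (the log2 values below) already known, so the values below describe them and are not a test of the selection. All 10 had a row in the mouse and rat tables and 8 in the macaque table, 28 rows in all. SEMA3A and PLXND1 had no macaque row under their symbols and are absent there. The macaque rows LOC708263 and LOC704044, described as semaphorin-3A-like and plexin-D1-like, carry these 2 names in RefSeq and are given under their LOC names, outside the counts of members.

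Class 3 semaphorins bind a neuropilin, which has hardly any signalling domain of its own, and signal into the cell through a plexin that the neuropilin recruits. SEMA3E is the exception, since it binds PLXND1 directly without a neuropilin. In bone, SEMA3A made by cells of the osteoblast lineage is known to restrain osteoclasts, and the family also guides nerve fibres and blood vessels. The neuropilins serve as coreceptors for vascular endothelial growth factors (VEGF) as well.

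The libraries were poly(A)+ RNA of bone that the study describes as enriched for osteocytes, that is, cells buried in mineralised matrix. The bone had been freed of periosteum and treated briefly with collagenase. Mouse bone came from C57BL6 females at 4 months (calvaria M4 and M8, tibia M5 and M7), each library pooled from 3 animals. Rat bone came from Wistar females at 6 months, pooled from 2 animals, with 1 calvaria library (R1) and 1 tibia library (R3) and therefore no replicates. Macaque bone came from single females, G1, G3 and T1 being calvaria (n = 3) and G2, G4 and T2 being tibia (n = 3), whose age the labels give as 4 to 6 months and the methods of the study as the same figures in years. Skull and tibia were paired according to the study, without the pairs being named.

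Reads counted on genes ranged from 13934813 to 16826535 in mouse, from 12233256 to 14255423 in rat and from 7951585 to 10342459 in macaque. Of 6 osteocyte markers all had reads in mouse and macaque, and all but FGF23 in rat. Their summed level lay between 981 and 1850 CPM (counts scaled to 1000000 reads on genes) in mouse calvaria and between 8020 and 10400 in mouse tibia. It was 500.0 against 7240 in rat, and between 4550 and 5690 against between 7750 and 19500 in macaque. Summed neutrophil markers moved the other way, with 86500 to 106000 CPM in mouse calvaria against 54400 to 59500 in tibia, 74600 against 40300 in rat and 18100 to 27000 against 3690 to 6760 in macaque. Summed endothelial markers lay between 154 and 165 CPM in mouse calvaria and between 222 and 248 in tibia, 177 and 342 in rat, and between 466 and 687 and between 619 and 781 in macaque. The mouse calvariae M4 and M8 resembled each other less (Pearson's r of 0.946 across genes) than M4 resembled the tibia M7 (0.968), and M4 held 24800 CPM of osteoblast markers against 10400 in M8. Macaque tibia T2 held 59700 CPM of osteoblast markers and 7750 of osteocyte markers, against 18400 and 19300 in G4. In bulk bone, fewer cells of a type and less RNA per cell cannot be told apart, and the part of these marker differences in the results below was not tested.

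SEMA3D, SEMA3E and NRP1, 3 of the 10 genes, were higher in every tibia library than in every calvaria library of the same species, in all 3 species. No member showed the opposite order in all 3. Of all 10536 genes tested, 3.63% had this order with the tibia on top. Levels are given as normalized CPM, tested reads scaled to CPM after TMM scaling (in rat without a TMM factor), and differences as log2 of calvaria over tibia, with negative values where the tibia was higher. A gene counted as called in mouse or macaque when its fold change exceeded 1.1 and its false discovery rate stayed below 0.2 in edgeR's quasi-likelihood fit over all genes.

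**Figure D1:**
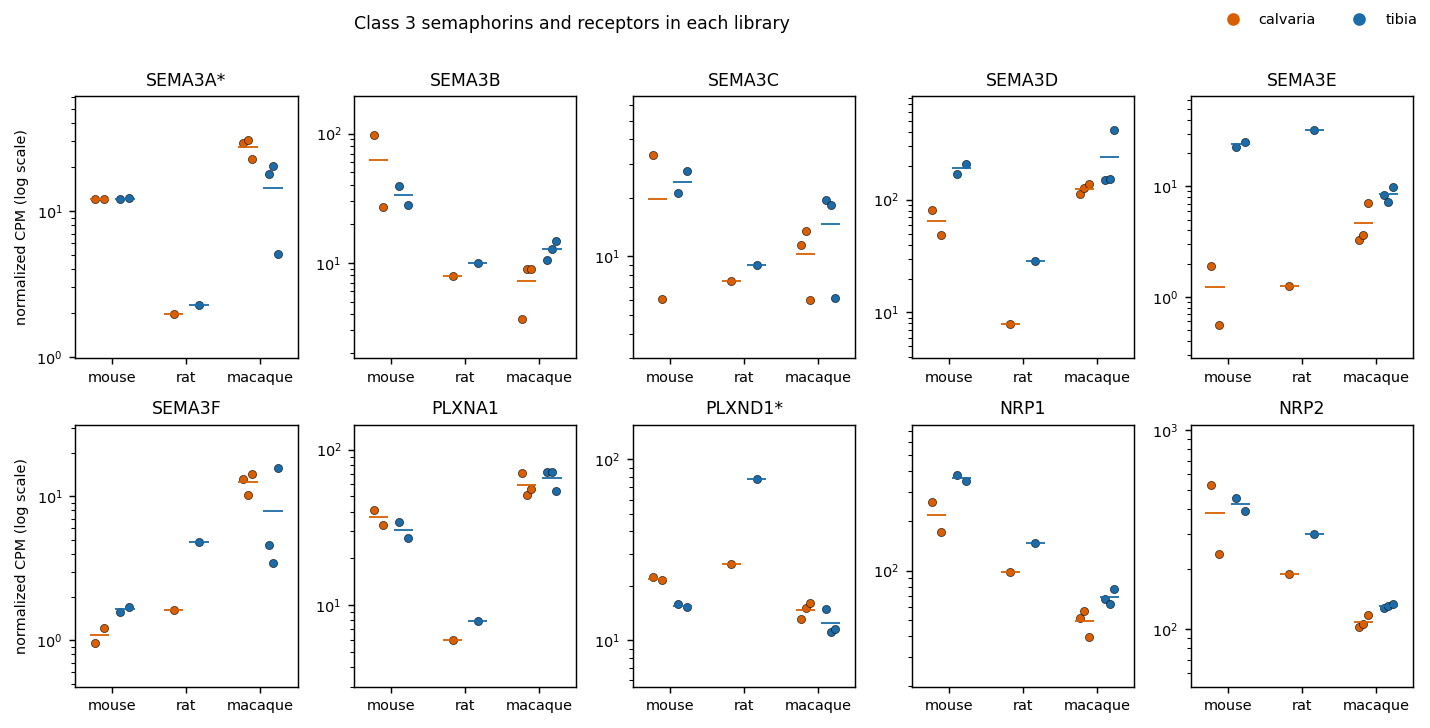
Normalized CPM (vertical log axis) of the 10 genes in each library of mouse, rat and macaque. Points are libraries, orange for calvaria and blue for tibia, and short lines are site means; stars mark the genes whose macaque points come from LOC708263 and LOC704044. SEMA3E spans 0.56 CPM in mouse calvaria M8 to 32.6 in rat tibia, and the sites lie apart in every species for SEMA3D, SEMA3E and NRP1.

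In mouse 1 of the 10 members was called, SEMA3E, where 0.304% of all genes were. Its adjusted p in edgeR's quasi-likelihood test was 0.19, just under the threshold of 0.2. The sites did not overlap for 5 members (SEMA3D, SEMA3E, SEMA3F, PLXND1 and NRP1), where 40.0% of all genes did not. In macaque 3 of the 8 members were called, SEMA3B, SEMA3D and NRP1, where 26.7% of all genes were. All 3 were higher in tibia, where 12.6% of all genes were both called and higher in tibia. The LOC rows, which are outside these 8, were both higher in calvaria. LOC708263 (log2 difference 0.93) was called and LOC704044 (0.25) was not. The sites did not overlap for 5 of the 8 (SEMA3B, SEMA3D, SEMA3E, NRP1 and NRP2), where 30.4% of all genes did not. In rat 1 member, SEMA3E, lay past a log2 ratio of 2, as 7.16% of all genes did. The difference was negative for 7 of 10 members in mouse, 7 of 8 in macaque and 10 of 10 in rat. A negative sign was common in rat, where the median over all genes was itself negative. Counted from the lowest rat value, SEMA3E ranked 63 of 10536 genes, but SEMA3C ranked 4828 and SEMA3A 5229. The median over the members was -0.22 in mouse against 0.04 over all genes, -0.50 against 0.01 in macaque and -0.61 against -0.20 in rat. At an unadjusted p under 0.05 stood 3 members and 788 genes in mouse, and 3 members and 2735 genes in macaque. The shares above are over all 10536 genes, of which 8301 had a read in all 12 libraries, as every member did. With only these 8301 tested, 7 genes and 0 members were called in mouse, and 2772 genes and 4 members in macaque.

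**Figure D2:**
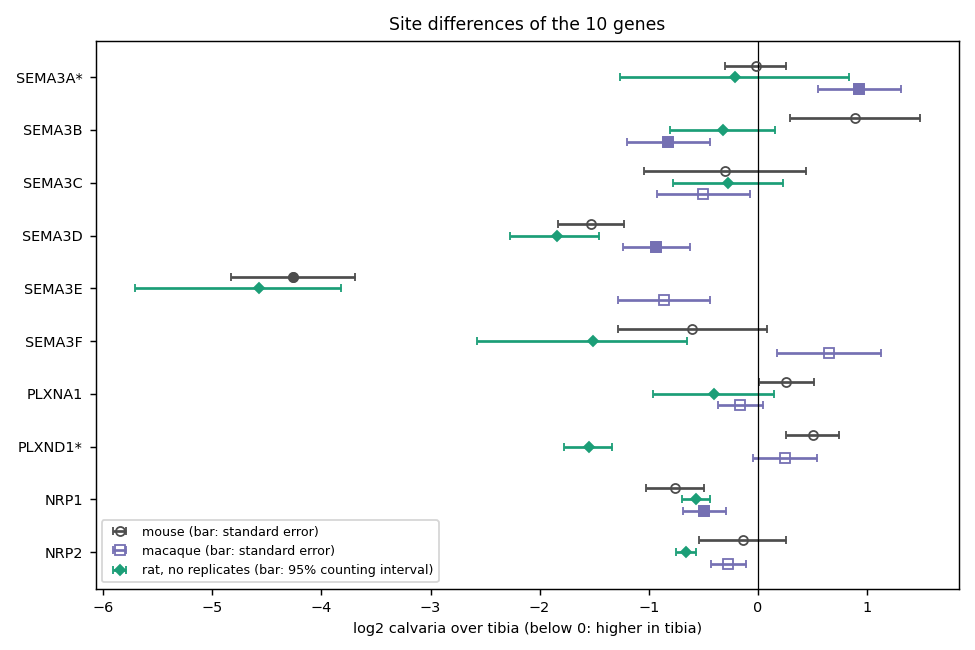
Log2 of calvaria over tibia (horizontal axis; below 0, higher in tibia) for the 10 genes in mouse (circles), macaque (squares) and rat (diamonds). Bars are standard errors in mouse and macaque and 95% exact binomial counting intervals in rat, filled circles and squares mark called genes, and stars mark the genes with a macaque LOC row. SEMA3E stands at -4.26 in mouse and -4.57 in rat but at -0.86 in macaque.

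Among the ligands, SEMA3E had the largest difference between the sites in the rodents. Mouse calvaria held 20 (M4) and 5 (M8) reads of SEMA3E, against 276 (M5) and 252 (M7) in tibia. These counts were 1.90 and 0.56 normalized CPM in calvaria and 23.0 and 25.3 in tibia. Both tibia libraries stood above both calvariae, and M4 held more than M8. The means were 1.23 ± 0.952 and 24.2 ± 1.68 CPM (SD, n = 2 each), a log2 difference of -4.26 (standard error 0.565), or 19.1-fold. Rat calvaria held 11 reads and rat tibia 259, or 1.27 and 32.6 CPM. The rat log2 ratio was -4.57, with a 95% exact binomial interval from -5.71 to -3.82 that covers counting error only. Counted from the gene with the lowest value, SEMA3E ranked 66 of 10536 genes in mouse and 63 in rat, and 1240 in macaque.

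In macaque SEMA3E was low at both sites. The calvariae G1, G3 and T1 held 3.28, 3.65 and 7.06 normalized CPM, and the tibias G2, G4 and T2 held 8.41, 7.27 and 9.78. The sites did not overlap, but calvaria T1 came close to tibia G4. The log2 difference was -0.86 (standard error 0.419), 1.82-fold, and it was not called. With a block for the assumed pairs it was -0.91 (standard error 0.401) and was called, as it also was with the table letter as a term, with library size alone, with edgeR's exact test, with genes read in all 12 libraries and without T1. Within the libraries lettered G the log2 ratio was -1.18 and between T1 and T2 it was -0.47. The study itself lists SEMA3E among its genes that differed in the same direction in mouse, rat and macaque. The study's mouse difference is close in size to the one given above and passed its false discovery rate by a wide margin. Its macaque and rat differences are larger in size than those given here, and the macaque difference passed its false discovery rate. The rat CPM values it lists for SEMA3E are lower at both sites than those here, so the 2 rat ratios rest on unlike counts. The macaque difference minus the mouse difference was 3.42 (standard error 0.737) in a fit over the 10 mouse and macaque libraries. This made SEMA3E the only one of the 10 genes, LOC rows included, that was called for the site by species term, where 5.00% of all genes were. Species cannot be told apart here from genome, annotation and sequencing lane.

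The mouse call of SEMA3E depended on the libraries in the fit. It was called without M4 (log2 difference -5.41) and without M8 (-3.66), where the remaining calvaria library is assumed to vary like the tibias. Without M5 (-4.33) or M7 (-4.18) it was not called. The level of SEMA3E followed the summed osteocyte markers among mouse libraries, from M8 with 981 CPM of markers to M7 with 10400. In macaque the highest SEMA3E level, in T2, went with 7750 CPM of markers, fewer than the 19300 and 19500 of G4 and G2. Summed chondrocyte markers, of which all 5 had reads in mouse and 4 of 5 in rat and in macaque, stood at 85.5 (M4) and 25.8 (M8) CPM in mouse calvaria against 681 (M5) and 546 (M7) in tibia, and at 7.30 against 32.7 in rat. In macaque they were lower in tibia, with 0.377 to 4.64 CPM against 5.14 to 9.10 in calvaria. Summed skeletal muscle markers, all 5 with reads in rat, were 5.82 CPM in rat calvaria and 631 in rat tibia, and they overlapped between the sites in mouse and macaque. The part of these markers in the SEMA3E difference was not tested.

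**Figure D3:**
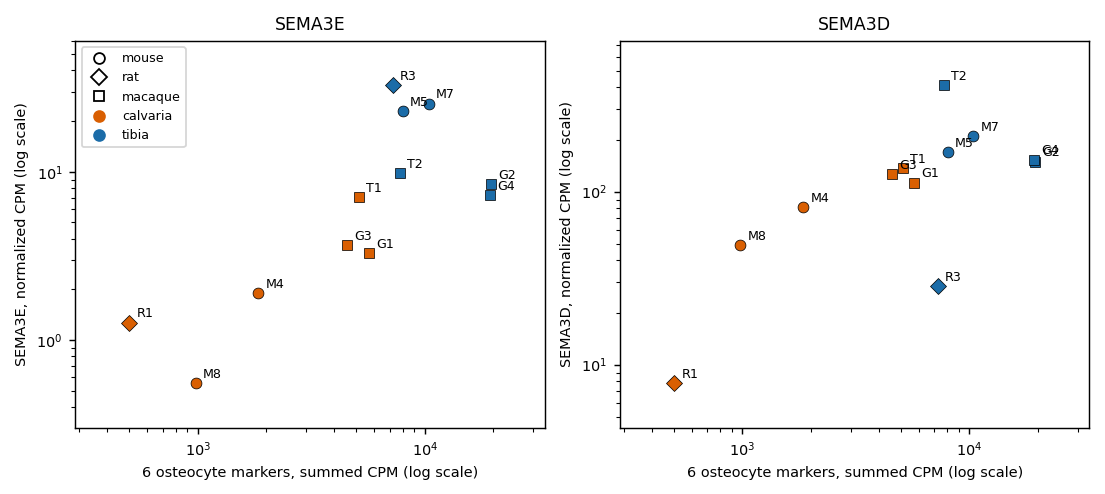
Normalized CPM of SEMA3E (left) and SEMA3D (right) against the summed CPM of 6 osteocyte markers in the 12 libraries, on log axes. Circles are mouse, diamonds rat and squares macaque, orange for calvaria and blue for tibia. The mouse and rat calvariae lie at 500 to 1850 CPM of markers and the mouse and rat tibias at 7240 to 10400, whereas macaque T2 has the highest SEMA3D level at 7750.

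SEMA3D, a ligand known from vessel and heart development, was higher in tibia in all 3 species. It stood at 81.3 (M4) and 49.1 (M8) normalized CPM in mouse calvaria and at 169 (M5) and 209 (M7) in mouse tibia. The means were 65.2 ± 22.8 and 189 ± 28.3 CPM (SD, n = 2 each), with a log2 difference of -1.53 (standard error 0.306), 2.90-fold, which was not called in mouse by the quasi-likelihood test but was called by DESeq2, by edgeR's exact test and with all mouse symbols tested. Rat calvaria held 68 reads and rat tibia 225, a log2 ratio of -1.84 (95% exact binomial interval -2.27 to -1.46), just inside the threshold of 2. Macaque calvariae lay at 113 (G1), 126 (G3) and 137 (T1) CPM, and the tibias at 149 (G2), 153 (G4) and 411 (T2). T1, the highest calvaria, came close to G2, the lowest tibia, and T2 stood far above both other tibias. The macaque log2 difference was -0.93 (standard error 0.305), and SEMA3D was called. Without T2 it was -0.27 and not called, and without G3 it was -0.93 and not called. Within the libraries lettered G the log2 ratio was -0.34, against -1.59 between T1 and T2.

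SEMA3B, a ligand studied as a tumour suppressor, had site differences of opposite sign in mouse and macaque. Mouse calvaria M4 held 96.9 normalized CPM, against 27.0 in M8, 39.2 in M5 and 27.9 in M7. The mouse log2 difference of 0.89 (standard error 0.596) was not called, and without M4 it became -0.31. In macaque the calvariae held 3.64 (G1), 9.03 (G3) and 8.87 (T1) CPM and the tibias 10.6 (G2), 12.8 (G4) and 14.7 (T2). Every macaque tibia stood above every calvaria, with a log2 difference of -0.82 (standard error 0.384), which was called (edgeR's adjusted p = 0.19). That call was kept without T1 and lost without any 1 of the other 5 libraries (log2 differences of -1.02 to -0.51), and it was also lost when all macaque symbols were tested. The site by species term for SEMA3B was -1.68 (standard error 0.707) and was not called. In rat the reads numbered 69 in calvaria and 79 in tibia, and the log2 ratio was -0.32 with an interval of -0.81 to 0.16.

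SEMA3C, which acts through both neuropilins, overlapped between the sites in mouse and macaque. Mouse calvaria held 33.3 (M4) and 6.01 (M8) normalized CPM, the highest and the lowest of the species, with 21.1 (M5) and 27.4 (M7) in tibia. Its log2 difference was -0.30 (standard error 0.740), and -2.01 without M4 against 0.46 without M8. Macaque calvaria held 11.5 (G1), 13.4 (G3) and 5.98 (T1) CPM and tibia 19.5 (G2), 18.3 (G4) and 6.13 (T2). The libraries lettered T stood low at both sites, with a log2 ratio of -0.04 between them and of -0.60 within those lettered G. Without T2 the macaque difference was -0.88 and SEMA3C was called. Rat had 65 and 72 reads, a log2 ratio of -0.27.

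SEMA3A, the member best known in bone, had nearly the same level at both sites in mouse. Mouse libraries held 11.98 (M4), 12.01 (M8), 11.98 (M5) and 12.27 (M7) normalized CPM, and the log2 difference was -0.02 (standard error 0.281). Rat held 17 reads in calvaria and 18 in tibia, and the 95% exact binomial interval of the log2 ratio ran from -1.26 to 0.83. With so few reads, any ratio within that interval is compatible with the rat counts, which cannot show equal levels. The macaque row LOC708263 held 28.9 (G1), 30.3 (G3) and 22.6 (T1) CPM in calvaria and 17.8 (G2), 20.2 (G4) and 5.11 (T2) in tibia. All 3 calvariae stood above all 3 tibias, with a log2 difference of 0.93 (standard error 0.384), which was called. Without T2, the lowest library, it was 0.52 and not called, and the call was also lost without G1 (0.87) and without G3 (0.85). Within the libraries lettered G the log2 ratio was 0.64, against 2.15 between T1 and T2.

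SEMA3F, a ligand that favours NRP2, was scarce in rodents. Mouse had 10 (M4) and 11 (M8) reads in calvaria and 19 (M5) and 17 (M7) in tibia, and the log2 difference was -0.60 (standard error 0.680). Rat had 14 and 38 reads, a log2 ratio of -1.51 (95% exact binomial interval -2.57 to -0.65). Macaque calvaria held 13.3 (G1), 10.2 (G3) and 14.3 (T1) normalized CPM, and tibia 4.62 (G2), 3.46 (G4) and 15.8 (T2). T2 was the highest of the 6 libraries while the other two tibias were the lowest. The macaque log2 difference of 0.65 (standard error 0.476) was not called, was 1.63 and called without T2, and was 0.90 (standard error 0.351) and called with the block for assumed pairs.

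Among the receptors, NRP1, the neuropilin that binds SEMA3A and VEGF, was higher in tibia throughout. Mouse calvaria held 260 (M4) and 172 (M8) normalized CPM, and tibia 380 (M5) and 349 (M7). The log2 difference was -0.76 (standard error 0.262), 1.69-fold, and was not called in mouse. Macaque calvaria held 51.7 (G1), 56.7 (G3) and 39.7 (T1) CPM and tibia 67.1 (G2), 63.0 (G4) and 77.3 (T2). All 3 macaque tibias stood above the calvariae, with a log2 difference of -0.49 (standard error 0.201), which was called. The call was lost without T1 (-0.37), G2 (-0.51) or T2 (-0.40). Rat had 852 reads in calvaria and 1158 in tibia, a log2 ratio of -0.57 (95% exact binomial interval -0.70 to -0.44). The summed endothelial markers were higher in tibia than in calvaria in mouse and rat and overlapped between the sites in macaque.

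NRP2, the neuropilin preferred by SEMA3F, differed less between the sites than NRP1 in mouse and macaque. Mouse calvaria held 530 (M4) and 239 (M8) normalized CPM on either side of the tibias, 456 (M5) and 390 (M7). The mouse log2 difference was -0.14 (standard error 0.397), and it was -0.83 without M4 and 0.32 without M8. Macaque calvaria held 103 (G1), 106 (G3) and 117 (T1) CPM and tibia 128 (G2), 130.5 (G4) and 133 (T2). The macaque sites did not overlap, but the log2 difference of -0.27 (standard error 0.159) was not called. Rat had 1643 and 2374 reads, a log2 ratio of -0.66.

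PLXND1, the plexin bound directly by SEMA3E, had site differences of opposite sign in mouse and rat. Mouse calvaria held 22.3 (M4) and 21.6 (M8) normalized CPM and tibia 15.8 (M5) and 15.2 (M7). Both mouse calvariae stood above both tibias, with a log2 difference of 0.50 (standard error 0.242) that was not called. Rat had 229 reads in calvaria and 617 in tibia, a log2 ratio of -1.55 (95% exact binomial interval -1.78 to -1.34) with no replicate check. The macaque row LOC704044 held 13.1 (G1), 15.2 (G3) and 16.1 (T1) CPM in calvaria and 14.8 (G2), 11.1 (G4) and 11.5 (T2) in tibia, which overlapped. Its log2 difference was 0.25 (standard error 0.291).

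PLXNA1, a plexin that pairs with neuropilins, overlapped between the sites. Mouse held 40.7 (M4) and 32.7 (M8) normalized CPM in calvaria and 34.3 (M5) and 27.0 (M7) in tibia, a log2 difference of 0.26 (standard error 0.249). Macaque held 70.6 (G1), 50.9 (G3) and 56.1 (T1) in calvaria and 72.2 (G2), 71.8 (G4) and 54.1 (T2) in tibia, a log2 difference of -0.16 (standard error 0.204). Rat had 52 and 63 reads, a log2 ratio of -0.40 with an interval of -0.96 to 0.15. In mouse the exons of PLXNA1 share 970 bases with the antisense gene Gm26811, whose reads cannot be told apart without strand.

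Levels of different genes were compared as RPKM, CPM over all reads on genes, divided by the kilobases of merged exon. In mouse calvaria NRP2 led with 31.5 ± 17.7 RPKM (SD, n = 2), followed by NRP1 (22.0 ± 6.98), SEMA3B (9.46 ± 7.74) and SEMA3D (6.50 ± 2.47). PLXNA1 (2.69), SEMA3C (2.66) and PLXND1 (2.10) came next, and SEMA3A (0.732), SEMA3F (0.171) and SEMA3E (0.120) closed the order. In this order the ranges over libraries overlapped between NRP2 and NRP1, SEMA3B and SEMA3D, PLXNA1 and SEMA3C, SEMA3C and PLXND1, and SEMA3F and SEMA3E. In mouse tibia NRP1 (39.2 ± 3.60) and NRP2 (36.5 ± 5.13) overlapped as well, and SEMA3D followed with 19.8 ± 2.38. SEMA3E held the tenth place in mouse calvaria and the sixth in tibia, with 2.46 ± 0.0973 RPKM, where its range overlapped that of PLXNA1.

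In rat NRP2 and NRP1 led at both sites, with 14.5 and 9.61 RPKM in calvaria and 24.5 and 15.2 in tibia, followed by PLXND1 with 2.36 and 7.42. SEMA3E stood at 0.108 RPKM in rat calvaria and at 2.97 in tibia. In macaque calvaria NRP2 (12.3 ± 0.497, SD, n = 3) and SEMA3D (12.1 ± 0.558) could not be ranked by their ranges. In macaque tibia SEMA3D led with 25.9 ± 14.6 RPKM, a mean that T2 raised with 42.8, and NRP2 followed with 17.1 ± 0.737. Their ranges overlapped, since in G2 and G4 SEMA3D stood at 17.5 RPKM in each against 17.6 and 17.5 for NRP2. SEMA3E was the lowest of the 10 in macaque calvaria, with 0.938 ± 0.381, and its range overlapped that of SEMA3C (1.21 ± 0.470).

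**Figure D4:**
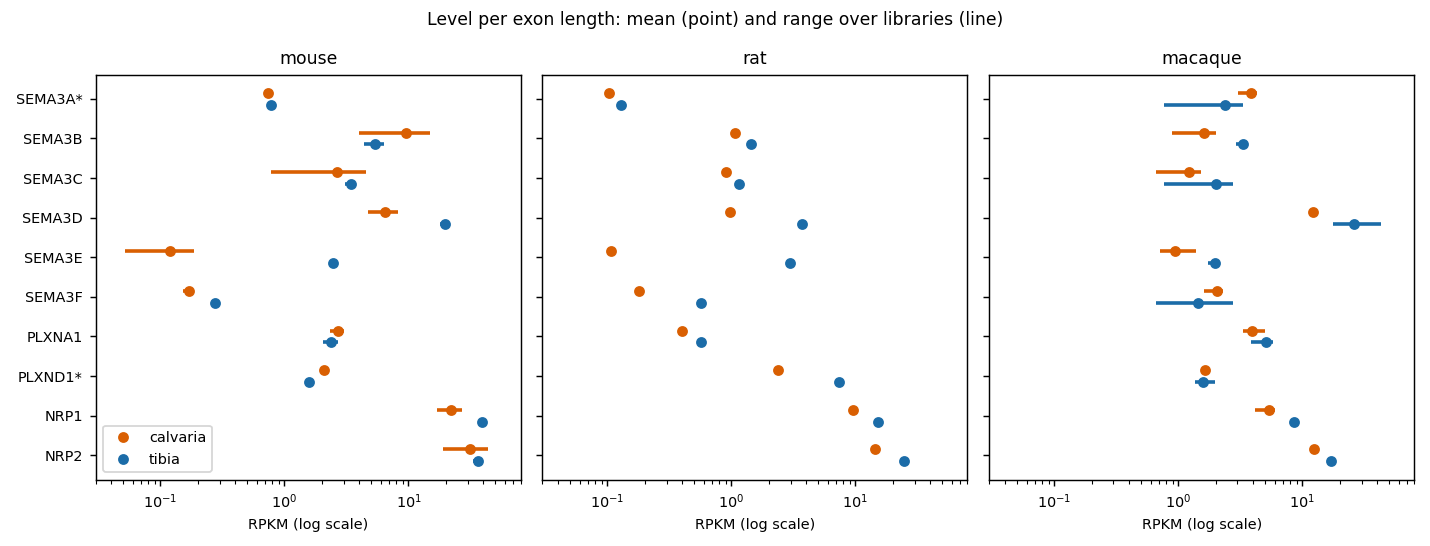
RPKM (horizontal log axis) of the 10 genes in mouse, rat and macaque, with orange for calvaria and blue for tibia. Points are means over the libraries of a site, lines run from the lowest to the highest library, and stars mark the genes with a macaque LOC row. SEMA3E moves from 0.120 to 2.46 RPKM in mouse and from 0.108 to 2.97 in rat, whereas SEMA3A stays at 0.732 and 0.783 in mouse.

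Each ligand's share was taken of the 6 ligands together. SEMA3E made up 0.650% (M4) and 0.499% (M8) of their summed RPKM in mouse calvaria, and 7.71% (M5) and 7.61% (M7) in mouse tibia. In rat its share was 3.25% in calvaria and 29.7% in tibia. In macaque it was 3.34% (G1), 3.30% (G3) and 6.27% (T1) in calvaria and 7.11% (G2), 5.97% (G4) and 4.05% (T2) in tibia, so that the sites overlapped. SEMA3D held the largest share of the 6 in every macaque library, with 54.4% to 57.9% in calvaria, 60.0% in G2 and G4 and 81.0% in T2. It also held the largest share in both mouse tibias, with 58.5% (M5) and 64.7% (M7), in mouse calvaria M8 (45.4%) and in rat tibia (37.4%). In mouse calvaria M4 and in rat calvaria SEMA3B stood above it. The summed RPKM of the ligands was 28.8 (M4) and 10.5 (M8) in mouse calvaria, against 31.0 (M5) and 33.2 (M7) in tibia. In macaque it lay between 21.2 and 22.0 in calvaria and was 29.1 (G2), 29.2 (G4) and 52.8 (T2) in tibia. Ligands over neuropilins came to between 0.291 and 0.478 in mouse and to 0.138 and 0.252 in rat, against between 1.101 and 2.088 in macaque, where 1 of the 6 ligands was the LOC row. The merged exon lengths that enter RPKM differed between the annotations. In macaque and mouse they were 3032 and 6861 bases for SEMA3E, 5428 and 8122 for NRP2, and 6365 and 6653 for SEMA3D. Species cannot be told apart from annotation in this ratio.

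The ratio of NRP2 to NRP1 in RPKM was 1.64 (M4) and 1.12 (M8) in mouse calvaria and 0.962 (M5) and 0.898 (M7) in mouse tibia. In rat it was 1.51 in calvaria and 1.61 in tibia. In macaque it lay between 1.95 and 3.08 in calvaria and between 1.80 and 2.17 in tibia. NRP2 was therefore ahead in 10 of the 12 libraries, the exceptions being both mouse tibias.

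In the mouse genome 4 of the ligand genes lie on the same strand of chromosome 5 (GRCm38, GENCODE vM21), in the order SEMA3D (12383385 to 12588948), SEMA3A (13125414 to 13602565), SEMA3E (14025276 to 14256689) and SEMA3C (17574281 to 17730268). The gap between SEMA3D and SEMA3A is 0.536 Mb and that between SEMA3A and SEMA3E 0.423 Mb. Their mouse log2 differences in this order were -1.53, -0.02, -4.26 and -0.30, so SEMA3A lies between 2 neighbours whose levels did not overlap between the sites, while its own levels did. SEMA3B (107597674 to 107609229) and SEMA3F (107681500 to 107710475) lie 0.0723 Mb apart on chromosome 9. The receptors are spread over chromosome 6 (PLXNA1 from 89316314 to 89362620 and PLXND1 from 115954811 to 115995005), chromosome 8 (NRP1 from 128358604 to 128503363) and chromosome 1 (NRP2 from 62703285 to 62818695). All values are sums over the merged exons of a gene, and introns were not counted.

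The genes whose profile over the 12 libraries was most like that of SEMA3E, after the species means of log2(CPM + 1) were taken out, were TNFRSF11B (osteoprotegerin, the decoy receptor of RANKL) with Pearson's r of 0.990, PRR15 (0.967), TMED4 (0.958), DMP1 (a matrix protein of osteocytes, 0.957) and BAMBI (a pseudoreceptor of the TGF-beta family, 0.954). They came from 7833 genes whose log2 CPM averaged over 1 in each species, and the libraries share depth, site and marker differences. Among the other members SEMA3D (0.879) and NRP1 (0.789) were most like SEMA3E, and PLXND1 had 0.188. The genes most like SEMA3A, with LOC708263 as its macaque row, included UTP14A (0.937), SLC25A25 (0.918), G3BP1 (0.901) and RNF219 (0.898). No other member passed 0.293 with SEMA3A.

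Of 63 other genes of the pathway, 52 were tested. They comprise the remaining class 3 semaphorin and plexin A genes, semaphorins and plexins of other classes, VEGF ligands and receptors, immunoglobulin adhesion coreceptors, proprotein convertases that cleave semaphorins, and intracellular effectors of plexins. In mouse edgeR's quasi-likelihood test called 0 of the 52, 9 stood at an unadjusted p under 0.05, and DESeq2 called 3 (SEMA3G, SEMA5A and DPYSL2). In macaque 12 of the 52 were called, where 26.7% of all genes were, with the calvaria higher for 5 and the tibia for 7, and 8 of the 12 were called without any 1 library. In rat 6 of the 52 lay past 2, where 7.16% of all genes did, 5 of them higher in tibia. The macaque count of each list is likewise set against the 26.7% of all genes. The median difference over the 52 genes was -0.23 in mouse, -0.39 in macaque and -0.53 in rat, against 0.04, 0.01 and -0.20 over all genes. The macaque median includes the genes with 3 reads or fewer in every library of a site, whose differences lay between -3.80 and -1.15.

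**Figure D5:**
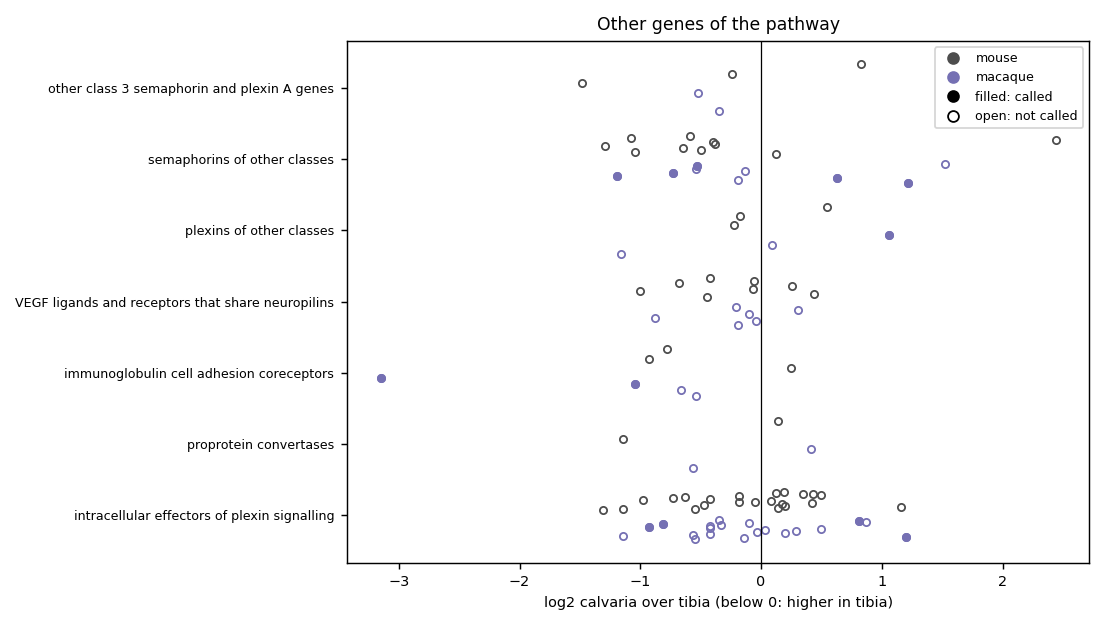
Log2 of calvaria over tibia (horizontal axis; below 0, higher in tibia) of the other pathway genes by list, in mouse (grey) and macaque (violet). Each point is a gene, filled where it was called; genes with 3 reads or fewer in every library of a site are left out for that species. No mouse point is filled, and the 12 filled macaque points lie on both sides of 0.

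Of 10 semaphorins of other classes, 5 were called in macaque, 2 higher in calvaria and 3 in tibia. SEMA4A, which acts on T cells, was 33.1 ± 1.73 normalized CPM in macaque calvaria and 14.2 ± 2.40 in tibia (SD, n = 3 each), a log2 difference of 1.22 with a standard error of 0.244 (edgeR's adjusted p = 0.00376). SEMA4D, a semaphorin made by osteoclasts and leukocytes, was 232 ± 32.4 in macaque calvaria and 150 ± 46.6 in tibia, a log2 difference of 0.63 (standard error 0.208) that was lost without G2, and it was -0.50 in mouse, where it was not called. SEMA5A was higher in macaque tibia, with 98.6 ± 6.75 against 59.5 ± 10.6 CPM (log2 difference -0.73, standard error 0.189, edgeR's adjusted p = 0.0196). It was -1.29 in mouse, where it was not called by the quasi-likelihood test but was called by DESeq2 and with all mouse symbols tested, and -1.98 in rat. SEMA6D was past the rat threshold at -2.40 and called in macaque at -0.53, a call that was lost without G1, G2, G3 or T2, and with RLE size factors, DESeq2 or edgeR's exact test. SEMA4G was called in macaque at -1.19, which was lost without G1, G2, G4 or T1. SEMA7A lay past the rat threshold at -2.29 and was called in neither mouse nor macaque.

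Of 3 plexins of other classes, 0 were called in mouse and 1 in macaque. PLXNC1, the receptor of SEMA7A, was higher in macaque calvaria (13.6 ± 2.40 against 6.55 ± 0.553 normalized CPM, SD, n = 3 each), with a log2 difference of 1.06 and a standard error of 0.330 (edgeR's adjusted p = 0.0479). Neutrophil markers were also higher in macaque calvaria, and their part in this was not tested. Of 8 VEGF ligands and receptors, edgeR called 0 in mouse and 0 in macaque with site alone in the fit. With the block for assumed pairs VEGFC, a ligand of lymphatic vessels, was called in macaque. Its log2 difference there was -0.97 (standard error 0.374), against -0.88 (standard error 0.438) without the block. VEGFC was also called with the table letter as a term and with library size alone. The block raised the macaque calls over all genes from 2812 to 3573. In rat FIGF (2 reads against 16) and PGF (32 against 142) lay past 2 with more in tibia. SEMA3G, the seventh class 3 semaphorin, was 8.39 ± 2.26 CPM in mouse calvaria and 23.5 ± 3.15 in tibia (SD, n = 2 each), with sites that did not overlap. Its log2 difference of -1.48 was not called by the quasi-likelihood test but was called by DESeq2, by edgeR's exact test and with all mouse symbols tested. It had 3 reads or fewer in every macaque library.

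Of 4 adhesion coreceptors, 2 were called in macaque, both higher in tibia. NRCAM, which forms a complex with neuropilins, was 25.6 ± 0.766 normalized CPM in calvaria and 52.6 ± 6.93 in tibia (SD, n = 3 each), a log2 difference of -1.04 with a standard error of 0.207 (edgeR's adjusted p = 0.00382). CNTN2, an axonal adhesion protein, was 0.363 ± 0.362 CPM in macaque calvaria and 3.45 ± 2.36 in tibia, a log2 difference of -3.15 with a standard error of 0.959 (edgeR's adjusted p = 0.0434). Of 22 effectors, 4 were called in macaque, and with the block for assumed pairs FYN (-0.43) and RRAS (-0.39) were called as well. Over all genes, 3573 were called with that block against 2812 without it. The guanine nucleotide exchange factor TIAM1 (log2 difference -0.81, edgeR's adjusted p = 0.00384) and FARP2, which binds plexin A (-0.93, edgeR's adjusted p = 0.0268), were higher in tibia, whereas the actin-severing CFL1 (0.81, edgeR's adjusted p = 0.00534) and the actin oxidase MICAL1 (1.20) were higher in calvaria, although MICAL1 was not called without T1 or without G2. In mouse these 4 effectors stood at 0.50, -0.73, 0.12 and 0.14 in that order, and none was called.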

How the data were processed

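For the mapping of the single-end reads the study names HISAT2, whereas the labels name BWA 0.7.10-r789. Which of them made the deposited counts cannot be told from this. HTSeq-count summed the reads over merged exons, without strand. As deposited, the tables give raw counts per gene and library, which were used here, and a normalized signal per library made by the authors, which was not. The exon length, also deposited, served for RPKM. Builds were mm10, rn6 and MacaM.

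Rows naming no gene (0.00261% to 0.0663% of reads) were left out. The 10536 genes tested are symbols found in all 3 species with a read in some library of each. Of 17111 macaque rows with LOC symbols, 5939 received a symbol from RefSeq, used for names only since its assembly differs. Mouse and macaque, the replicated species, each had a fit of its own in edgeR 4.0.16 (R 4.3.3, TMM, quasi-likelihood test, Benjamini-Hochberg adjustment), by site alone. The rat log2 ratio used CPM with 1 read added. Standard errors are the log2 difference over the square root of F. Other tools were Python 3.11.15, numpy 2.4.6, scipy 1.17.1, pandas 2.3.3, matplotlib 3.10.9 and DESeq2 1.42.0. The fits were tested on simulated data. The members and all lists were chosen with earlier results of these data known. From the pathway lists, up to 5 called genes with the smallest p-values per species and direction were named, and genes past the rat threshold that were called elsewhere. SEMA3G, SEMA4G, SEMA6C, SEMA7A, VEGFC, FIGF, PGF, DPYSL2, FYN and RRAS were named after their values were seen. For SEMA3E and SEMA3A the 5 genes of most similar profile were named, except 1 that is not reported here.

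The study states that skull and tibia were paired. Across 8591 genes the macaque deviations from site means correlated with r of 0.17 (G1 and G2), 0.26 (G3 and G4) and 0.41 (T1 and T2), against -0.33 to 0.08 for other combinations. Among the libraries lettered G the other combinations stood at 0.08 (G1 and G4) and 0.03 (G3 and G2). Deviations from a site mean cancel within the site, so these values are not independent, and T1 and T2 also share a table letter. They cannot establish the pairs, which remain an assumption. Alternatives covered scaling, gene filter, tool, threshold, pairing, table letter and leaving out each library. The table letter was added after the data were seen.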

Additional observations from a re-analysis of the deposited data

Results flagged for a closer look

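The site difference of SEMA3E differed between mouse and macaque, by 3.42 on the log2 scale (macaque minus mouse, standard error 0.737), with a false discovery rate under 0.2 in a fit over the 10 libraries. It was higher in both mouse tibias and in all 3 macaque tibias than in the calvariae, at -4.26 and -0.86. SEMA4D differed by 1.15, from -0.50 in mouse to 0.63 in macaque. SEMA6C differed by -2.95 (standard error 0.812), from 2.44 in mouse to -0.54 in macaque, and was called in neither species alone. Its mouse level was low and uneven, with 4.83 ± 3.53 normalized CPM in calvaria and 0.895 ± 0.442 in tibia (SD, n = 2 each). The rat log2 ratio of SEMA6C was -1.77, opposite in sign to mouse. TIAM1 differed by -1.29, from 0.50 in mouse to -0.81 in macaque. SEMA4D, SEMA6C and TIAM1 were 3 of the 52 other pathway genes tested, where 5.00% of all genes passed for this term. For all 4 genes, species cannot be told apart from genome, annotation and sequencing lane.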

How the results depend on the processing

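Of the 32 genes called in mouse, counts were 510 with all mouse symbols tested, 282 with DESeq2, 329 with edgeR's exact test, 20 with macaque symbols as printed, 7 with genes read in all 12 libraries and 2 at a false discovery rate under 0.05. Members called in mouse were 2 (SEMA3D and SEMA3E) with all symbols, DESeq2 or the exact test, and 0 with genes read in all 12 libraries or under 0.05. Pathway genes called in mouse numbered 3 with all symbols or DESeq2 (SEMA3G, SEMA5A and DPYSL2) and 3 with the exact test (SEMA3G, SEMA6C and DPYSL2). Under the replicate block for assumed pairs 63 mouse genes were called, and 78 with 2 members (SEMA3D and SEMA3E) under the other pairing. In macaque 5 members were called with the block for assumed pairs or the table letter as a term (SEMA3B, SEMA3D, SEMA3E, SEMA3F and NRP1), and 5 with library size alone, where NRP2 took the place of SEMA3F. Calls over all macaque genes rose as well, from 2812 to 3573 with the block and to 3592 with the table letter. The exact test (2734 genes called) and the filter on reads in all 12 libraries (2772 genes) added SEMA3E in macaque (4 members). Testing all macaque symbols (3724 genes called) left out SEMA3B (2 members). With the block 15 of the 52 pathway genes tested were called in macaque, where 3573 of all 10536 genes were. VEGFC, FYN and RRAS were added to the 12 called without it. Library size alone called 2960 macaque genes, 1201 of them higher in calvaria, against 1481 of 2812 with TMM. Under 0.05 the macaque calls were 1325 genes and 0 members (3 members at an unadjusted p under 0.05). In rat 5 added reads left 403 genes past the ratio, and a threshold of 1 gave 2449 genes and 4 members (SEMA3D, SEMA3E, SEMA3F and PLXND1).

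Leaving out 1 library gave 9 (without M7) to 5016 (without M4) mouse genes, 0 to 7 members and 0 to 32 pathway genes, and 1730 (without G2) to 3609 (without T2) macaque genes, 1 to 3 members and 9 to 12 pathway genes. Fits without M4 or M8 leave a single calvaria library. Of 276 recomputed log2 differences of the members, 260 moved by less than their standard error and 16 by more, all 16 on leaving out M4, M8, T1 or T2. With the macaque medians in place of means, 4 places in the order of levels in calvaria changed. Low reads limit SEMA3F and SEMA3E in mouse and rat calvaria and SEMA3A in rat.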
